A study of Mus musculus with 12 samples.

Results

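Across the ATAC-seq peak lists of 4 diet groups of mouse aortic endothelial cells (MAECs), 3063 regions of open chromatin were called in 3 lists and not in the fourth, CDM-WDO. The peaks of the 4 lists on chromosomes 1 to 19 and X were merged wherever they overlapped by at least 1 bp, which gave 48003 regions. The 3063 regions were chosen by these calls: each held a peak of WDM-WDO, WDM-CDO and CDM-CDO and none of CDM-WDO. They made up 6.38% of all merged regions. Since the absence from CDM-WDO chose them, it is described and not tested.

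ATAC-seq inserts sequencing adapters where DNA is open, and a peak caller marks sites where reads pile up above the local background. Group names give the mothers' diet first (CDM or WDM) and then that of the offspring (CDO or WDO), and the labels abbreviate the diets as CD and WD. CDM-WDO and WDM-WDO offspring had been put back on WD for 4 weeks, and WDM-CDO and CDM-CDO offspring are labelled CD. Each group had 2 ATAC-seq samples and 1 peak list, so no list can be compared with a replicate and no difference carries a p-value. The sources used here give no strain, genotype, sex or age. The names of the peaks carry the tag 12w in both WDO lists and 08w in both CDO lists, so the offspring's diet cannot be told apart from whatever that tag stands for.

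Endothelial cells line the aorta and sense blood flow, lipids and inflammatory signals. Open promoters are often shared among cell types, while open sites away from promoters, such as enhancers, tend to differ more between cell types. The artery wall also holds resident and recruited white blood cells, among them T cells, whose chromatin has its own open sites. A region with no call is not shown to be closed, since a weak peak can fall below the calling limit of a list.

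Promoters at 5 of the 10 strongest gene-end regions are shown first, to give the sequence at sites with strong peaks in the other 3 lists. They are the 250 bases before the annotated start from RefSeq (GRCm38.p6, printed in the direction of transcription) of Ndufa5 (chr6:24527691-24527940, minus strand), Zscan21 (chr5:138116655-138116904, plus strand), Ctnnbip1 (chr4:149517991-149518240, plus strand), Mnd1 (chr3:84155787-84156036, minus strand) and Dexi (chr16:10543055-10543304, minus strand). Capitals mark matches, on either strand, to the GC box GGGCGG, the CCAAT box CCAAT, the ETS letters CCGGAA and the RUNX letters TGTGGTT.
Ndufa5: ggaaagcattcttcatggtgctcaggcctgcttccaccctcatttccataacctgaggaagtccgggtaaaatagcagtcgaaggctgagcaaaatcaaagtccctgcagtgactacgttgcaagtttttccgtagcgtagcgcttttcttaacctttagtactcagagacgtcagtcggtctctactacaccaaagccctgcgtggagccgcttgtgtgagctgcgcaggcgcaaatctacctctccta
Zscan21: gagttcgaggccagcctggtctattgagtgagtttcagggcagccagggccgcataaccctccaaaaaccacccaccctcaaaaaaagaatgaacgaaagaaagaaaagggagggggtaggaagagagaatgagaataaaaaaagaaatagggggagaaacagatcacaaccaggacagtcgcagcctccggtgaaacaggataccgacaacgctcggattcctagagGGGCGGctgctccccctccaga
Ctnnbip1: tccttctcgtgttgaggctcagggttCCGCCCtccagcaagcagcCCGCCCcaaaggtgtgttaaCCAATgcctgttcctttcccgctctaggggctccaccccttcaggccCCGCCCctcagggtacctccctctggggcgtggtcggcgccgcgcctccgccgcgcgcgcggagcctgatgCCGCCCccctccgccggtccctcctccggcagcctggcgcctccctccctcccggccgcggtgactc
Mnd1: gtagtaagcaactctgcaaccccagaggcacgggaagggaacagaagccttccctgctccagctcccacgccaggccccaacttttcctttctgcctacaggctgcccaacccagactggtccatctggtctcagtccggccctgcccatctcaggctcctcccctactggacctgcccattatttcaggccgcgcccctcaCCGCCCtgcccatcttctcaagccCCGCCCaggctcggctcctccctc
Dexi: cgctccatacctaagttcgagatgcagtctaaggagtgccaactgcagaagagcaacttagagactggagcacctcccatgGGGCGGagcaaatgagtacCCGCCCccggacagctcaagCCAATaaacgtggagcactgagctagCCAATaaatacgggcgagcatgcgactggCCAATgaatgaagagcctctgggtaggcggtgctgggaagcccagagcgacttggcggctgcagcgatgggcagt

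The peak summits lay close to these starts, 17 bases upstream of the start of Mnd1, 77 upstream for Dexi and 81 upstream for Ctnnbip1, and 25 bases downstream for Ndufa5 and 157 downstream for Zscan21. Ctnnbip1 had 4 GC box matches and 1 CCAAT box match, Dexi 2 and 3, Mnd1 2 and 0, Zscan21 1 and 0, and Ndufa5 had neither. GC content ran from 50.8% in Ndufa5 to 72.4% in Ctnnbip1. No single one of these motifs was in all 5 promoters. Closeness to a start was fixed by the choice, since only regions over a promoter window were taken.

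Promoters of T cell genes are shown as a second set, because such genes recur among the 3063 regions as described further on. They belong to Lat (chr7:126369569-126369818, minus strand), Runx3 (chr4:135120395-135120644, plus strand) and Cd5 (chr19:10738975-10739224, minus strand), with the same marking.
Lat: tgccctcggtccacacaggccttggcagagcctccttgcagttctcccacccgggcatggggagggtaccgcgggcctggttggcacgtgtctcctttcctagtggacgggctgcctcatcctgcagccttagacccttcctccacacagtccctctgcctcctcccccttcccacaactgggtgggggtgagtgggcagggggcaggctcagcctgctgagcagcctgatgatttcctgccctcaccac
Runx3: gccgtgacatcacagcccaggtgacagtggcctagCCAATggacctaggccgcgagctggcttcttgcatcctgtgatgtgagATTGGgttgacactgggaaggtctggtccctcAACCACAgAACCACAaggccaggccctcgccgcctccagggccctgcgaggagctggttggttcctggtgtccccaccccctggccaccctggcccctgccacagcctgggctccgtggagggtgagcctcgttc
Cd5: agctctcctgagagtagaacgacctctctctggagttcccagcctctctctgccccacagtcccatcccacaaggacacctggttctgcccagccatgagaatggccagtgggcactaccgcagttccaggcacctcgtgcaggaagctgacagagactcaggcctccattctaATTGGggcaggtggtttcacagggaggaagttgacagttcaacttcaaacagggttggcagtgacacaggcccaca

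The Runx3 promoter held 2 matches to the RUNX letters, side by side, and 2 to the CCAAT box. Cd5 held 1 CCAAT box match and Lat none of the marked motifs. None of these 3 promoters held a GC box match.

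The lists differed in length. CDM-WDO held 18962 peaks, against 26275 in WDM-WDO, 28319 in WDM-CDO and 22178 in CDM-CDO. The median number of reads piled up at a summit was 31 in CDM-WDO, 39 in WDM-WDO, 38 in WDM-CDO and 36 in CDM-CDO. The genome background did not follow that order, at 5.49 reads in CDM-WDO, 6.08 in WDM-WDO, 5.59 in WDM-CDO and 4.84 in CDM-CDO. Read totals were not used, so the sequencing depth of the lists is not known here. A missing call was also commoner in CDM-WDO than in any other list. Of the 13414 regions called in the other 3 lists, 22.8% were missing in CDM-WDO. The same count for the other lists was 518 of 10869 regions (4.77%) missing in WDM-WDO alone, 166 of 10517 (1.58%) in WDM-CDO alone and 998 of 11349 (8.79%) in CDM-CDO alone.

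The missing regions were mostly of middling strength. Their median −log10 q, the authors' score for how far a peak exceeds its background, was 7.12 in WDM-WDO, 11.4 in WDM-CDO and 8.18 in CDM-CDO. Regions called in all 4 lists had medians of 26.1, 34.7 and 22.2 in those lists and 14.5 in CDM-WDO. Pileups were also lower at the missing regions, with medians of 36, 45 and 34 reads, against 73, 85 and 60 reads at regions of all 4 lists. Among the strongest 10% of peaks of each list stood 0 of the 3063 regions in WDM-WDO, 56 in WDM-CDO and 25 in CDM-CDO. The peak was strongest by −log10 q in WDM-CDO, the list with most peaks, for 1899 regions (62%).

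**Figure D1:**
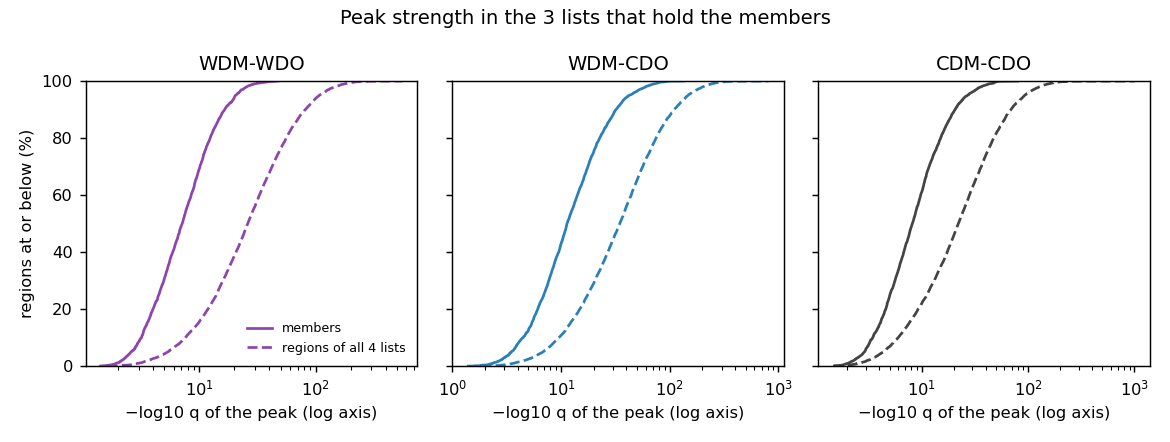
Cumulative share of regions (y axis, %) at or below each −log10 q (x axis, log scale) in WDM-WDO, WDM-CDO and CDM-CDO, for the 3063 regions missing in CDM-WDO (solid, in the legend as members) and the 10351 regions of all 4 lists (dashed). The solid curves lie to the left, with medians of 7.12, 11.4 and 8.18 against 26.1, 34.7 and 22.2.

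To set each absence against the lower pileups of CDM-WDO, an expected pileup was computed there for every region. The pileup above background in each of the other lists was multiplied by 0.661 for WDM-WDO, 0.532 for WDM-CDO and 0.777 for CDM-CDO, the median ratios at 5176 strong regions of all 4 lists, and the lowest of the 3 values relative to the limit was kept. The limit was the pileup that a call in CDM-WDO needed over the same background. At 1107 of the 3063 regions (36.1%) the expected pileup fell under the limit, and at 1940 (63.3%) it was 1 to 2 times the limit. At 16 regions (0.522%) it was 2 or more times the limit, out of 3532 regions of the other 3 lists expected that high (0.453%). That number depends on the setting, with 4 regions where all lists needed a −log10 q of at least 2, and 123 where the median of the 3 expected values replaced the lowest, a setting chosen after seeing the data.

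The share of regions missing in CDM-WDO fell as the expected pileup rose. It was 59.8% between 0.75 and 1 times the limit, 41.0% between 1 and 1.25, 23.6% between 1.25 and 1.5, 9.24% between 1.5 and 1.75 and 3.83% between 1.75 and 2. The other lists followed like curves, and at 2 or more times their own limits 17 of 6093 regions were missing in WDM-WDO alone, 14 of 8067 in WDM-CDO alone and 7 of 5619 in CDM-CDO alone. Between 1.25 and 1.5 times the limit the share was higher in CDM-WDO (interval 21.9 to 25.5%) than in WDM-WDO (11.7%, 10.1 to 13.5%), WDM-CDO (14.2%, 11.1 to 17.9%) or CDM-CDO (15.2%, 13.5 to 17.0%). That did not hold throughout. At 0.75 to 1 times, CDM-CDO stood higher (65.6%, 59.75 to 70.95%) than CDM-WDO (57.5 to 62.0%), with intervals that met. At 1 to 1.25 times the CDM-WDO interval (39.3 to 42.8%) met that of CDM-CDO (35.4 to 40.9%). At 1.5 to 1.75 times the CDM-WDO interval (7.9 to 10.8%) met that of WDM-CDO (4.9 to 8.1%). Intervals on shares are 95% Wilson intervals and cover counting error only.

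**Figure D2:**
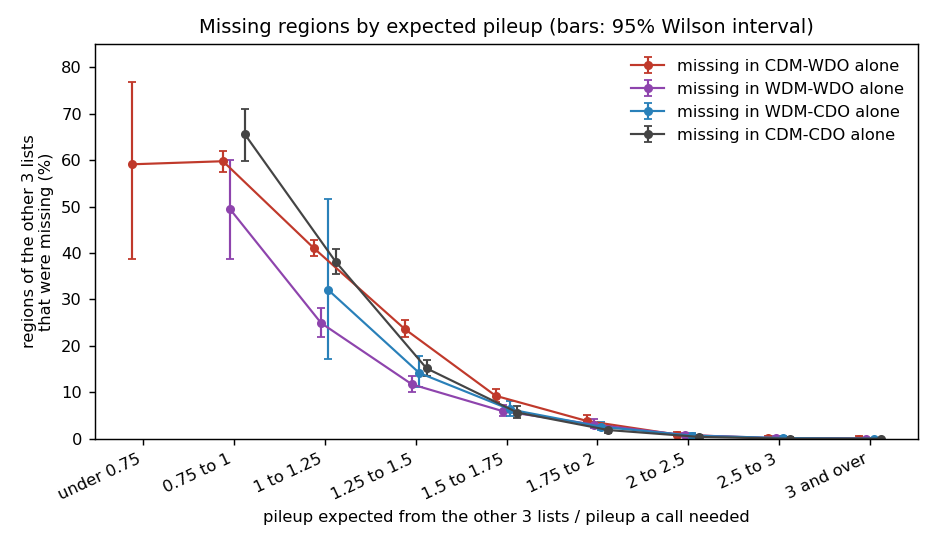
Share of regions of the other 3 lists that were missing in the list named (y axis, %), by the ratio of expected to needed pileup (x axis, bins), with 95% Wilson intervals. All 4 curves fall towards 0 above a ratio of 2. In CDM-WDO 41.0% were missing at 1 to 1.25 times the limit and 0 of 806 at 3 and over.

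At the borders of the rule the values met. The weakest of the missing regions by the lowest of their 3 −log10 q values lay inside Zap70 (1.41 in WDM-WDO, 8.22 in WDM-CDO, 7.87 in CDM-CDO). The next lay inside H2-T24 (1.45, 5.09 and 1.91 in the same lists). The weakest CDM-WDO peaks among regions of all 4 lists lay at an end of Slc48a1 (1.43 in CDM-WDO, and 9.22, 16.3 and 8.41 in the others) and 232183 bp from Rplp1 (1.45 in CDM-WDO, and 2.91, 3.71 and 3.68). The median distance to the nearest CDM-WDO peak was 22360 bp, and 68 regions (2.22%) had one within 1000 bp.

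Position was not part of the rule. Of the 3063 regions, 1184 (38.6%, interval 37.0 to 40.4%) lay no farther than 1 kb from the lower or upper coordinate of a protein-coding gene, called a gene end here because the gene table gives no strand. Regions of all 4 lists did so in 67.4%, and all merged regions in 24.7%. A further 1092 (35.6%) lay inside a gene beyond that window, 684 outside but within 100 kb, and 103 farther away. The share at gene ends was like that of the regions missing in WDM-WDO alone (38.8%, 34.7 to 43.1%) and above those missing in WDM-CDO alone (18.7%, 13.5 to 25.3%) and CDM-CDO alone (15.9%, 13.8 to 18.3%). The regions were also narrower than those of all 4 lists, with a median width of 805 bp against 1042 bp. This was not particular to them, with 801.5 bp for regions missing in WDM-WDO alone, 770.5 bp in WDM-CDO alone and 797.5 bp in CDM-CDO alone.

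At like expected pileup, regions away from gene ends were missing more often between 1 and 2.5 times the limit. At 1 to 1.25 times, 45.4% away from gene ends were missing in CDM-WDO (43.0 to 47.8%) and 35.8% at gene ends (33.3 to 38.3%). At 1.25 to 1.5 times the shares were 29.4% (26.5 to 32.5%) and 19.5% (17.4 to 21.8%), at 1.5 to 1.75 times 12.1% (9.55 to 15.1%) and 7.81% (6.34 to 9.59%), and at 1.75 to 2 times 7.46% (5.11 to 10.8%) and 2.58% (1.75 to 3.78%). Of these 4 pairs of intervals, those at 1.5 to 1.75 times met. Under the limit both shares were close, at 59.1% away from ends and 61.3% at ends. At 2 or more times the limit 9 of 544 were missing away from ends (1.65%) and 7 of 2988 at ends (0.234%).

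**Figure D3:**
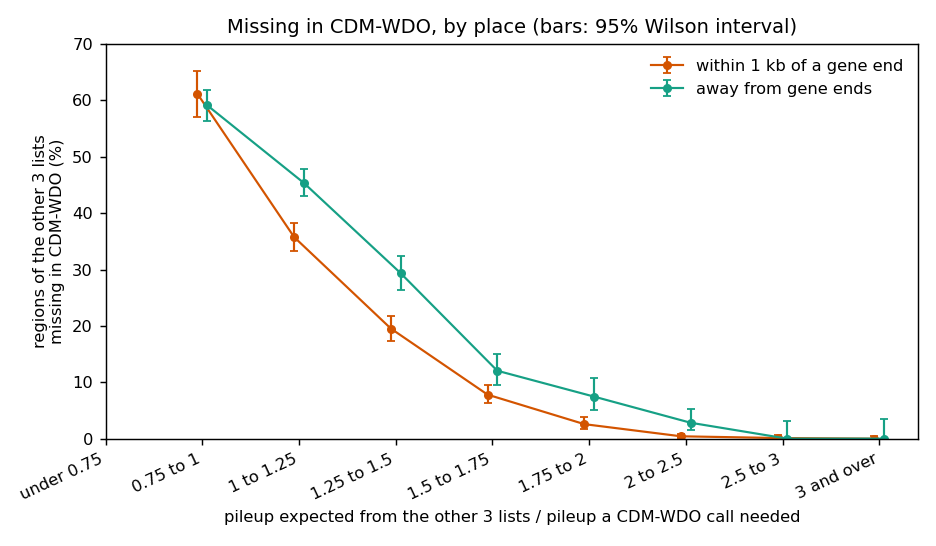
Share of regions of the other 3 lists missing in CDM-WDO (y axis, %) by the ratio of expected to needed pileup (x axis, bins), for regions away from gene ends (green) and within 1 kb of one (orange), with 95% Wilson intervals. Between ratios of 1 and 2.5 the green points lie higher, such as 45.4% against 35.8% at 1 to 1.25.

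Promoter composition differed as well. The RefSeq promoter windows that the regions overlapped, 250 bases before to 50 after a start, numbered 1291 and had a median GC content of 58.7%, against 62.3% for 8788 windows of regions of all 4 lists and 53.0% for all 32585 windows. The windows missing in WDM-WDO alone had 66.7%, those missing in WDM-CDO alone 56.0% and those missing in CDM-CDO alone 54.5%. Among regions over promoter windows and expected at 1 to 2 times the limit, the share missing in CDM-WDO was 17.4% under 45% GC (20 of 115, interval 11.6 to 25.3%), 25.3% at 45 to 55% (228 of 900), 18.2% at 55 to 65% (326 of 1792), 12.9% at 65 to 75% (146 of 1131) and 11.1% above (26 of 235). The share fell with GC content from 45% upward, and the few GC-poorest promoters did not continue that order. The median ratio of expected to needed pileup ran from 1.34 to 1.51 over these 5 classes, so their strengths were not equal.

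Of 16 motifs counted on both strands, the GC box GGGCGG was in 56.9% of the 1291 windows, against 70.2% of windows of all 4 lists and 35.9% of all windows. The ETS letters CCGGAA, the core bound by factors such as Erg, Fli1 and Ets1, were in 28.8%, 32.9% and 15.0%. The CCAAT box, bound by the factor NF-Y, was in 34.1%, 40.6% and 37.6%. Other motifs were commoner in the 1291 windows than in windows of all 4 lists, with intervals that did not meet. The GATA letters AGATAA were in 7.59% (6.27 to 9.17%) against 4.75% (4.32 to 5.21%), and 11.2% of all windows. The RUNX letters TGTGGTT were in 5.42% (4.31 to 6.80%) against 3.43% (3.07 to 3.83%), and 5.29% of all. The AP-1 letters TGANTCA were in 5.96% (4.80 to 7.39%) against 4.15% (3.76 to 4.59%), and 7.85% of all. The interferon response motif was in 4.03% (3.09 to 5.24%) against 2.58% (2.27 to 2.94%), and 3.45% of all. In each of these 4 the share over all windows was above that of windows of all 4 lists. Windows of regions missing in another list alone were fewer, at 200 for WDM-WDO, 25 for WDM-CDO and 134 for CDM-CDO. In that order, GATA was in 4.0%, 4.0% and 4.48%, and RUNX in 4.5%, 0% and 5.97%. AP-1 was in 1.0%, 8.0% and 12.7%, and the interferon response motif in 4.5%, 4.0% and 3.73%. So the RUNX, AP-1 and interferon response shares were not particular to the regions missing in CDM-WDO. The other 9 motifs were in 1.16% (the sterol response motif) to 11.9% (the E-box CACGTG) of the 1291 windows. A match is a description of letters and not a bound site.

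The strongest gene-end regions belonged to genes of unlike functions. Their rank is by the lowest of the 3 −log10 q values, and the pileups are in reads. Esco2, the acetyltransferase that locks cohesin onto replicated DNA, led with 95 reads in WDM-WDO, 148 in WDM-CDO and 81 in CDM-CDO (chromosome 14, 65833534 to 65834184). In CDM-WDO, 65.9 reads were expected where 25 would have been called, the largest such ratio of all 3063 regions (2.63). The nearest CDM-WDO peak lay 55885 bp away. Psmc4, an ATPase of the proteasome cap, had 94, 116 and 63 reads, with 52.6 expected and 25 needed (chromosome 7, 28049830 to 28050362). Both were expected at over 2 times the limit.

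Ctnnbip1, whose product blocks beta-catenin from its partners, had 74, 106 and 66 reads (51.9 expected, 25 needed). Arhgap33, a GTPase-activating protein gene, had 76, 114 and 69 (53.5 and 26). Ndufa5, a subunit of respiratory complex I, had 82, 85 and 71 (50.8 and 26), and the region also reached an end of Asb15. Mnd1, a meiotic recombination factor gene, had 76, 81 and 64 reads (48.2 and 25), and the zinc finger gene Zscan21 had 74, 66 and 69 (39.5 and 22). The others of the first 10 were Dexi, Dennd1c and Ogfrl1, with 60 to 128 reads. At 8 of these 10, WDM-CDO had the most reads.

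Away from gene ends, the strongest region lay inside Mrps27, which encodes a mitochondrial ribosome protein, with 84 reads in WDM-WDO, 117 in WDM-CDO and 91 in CDM-CDO (chromosome 13, 99353165 to 99353698). In CDM-WDO 58.4 reads were expected and 24 needed. A region 3368 bp from Dag1, the dystroglycan gene, had 95, 123 and 75 reads (72.6 expected, 31 needed). Inside Ptk2b, a tyrosine kinase gene of adhesion and calcium signalling, a region had 73, 128 and 95 reads (51.0 and 23). Inside Abcg1, which exports cholesterol from cells, a region had 90, 168 and 84 reads (64.0 and 33), and 2 weaker regions of Abcg1 were missing in CDM-WDO too. The remaining 6 lay nearest to Spsb1, Gm15319, Gnpda1, Zswim6, Chrna9 and Rbx1.

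**Figure D4:**
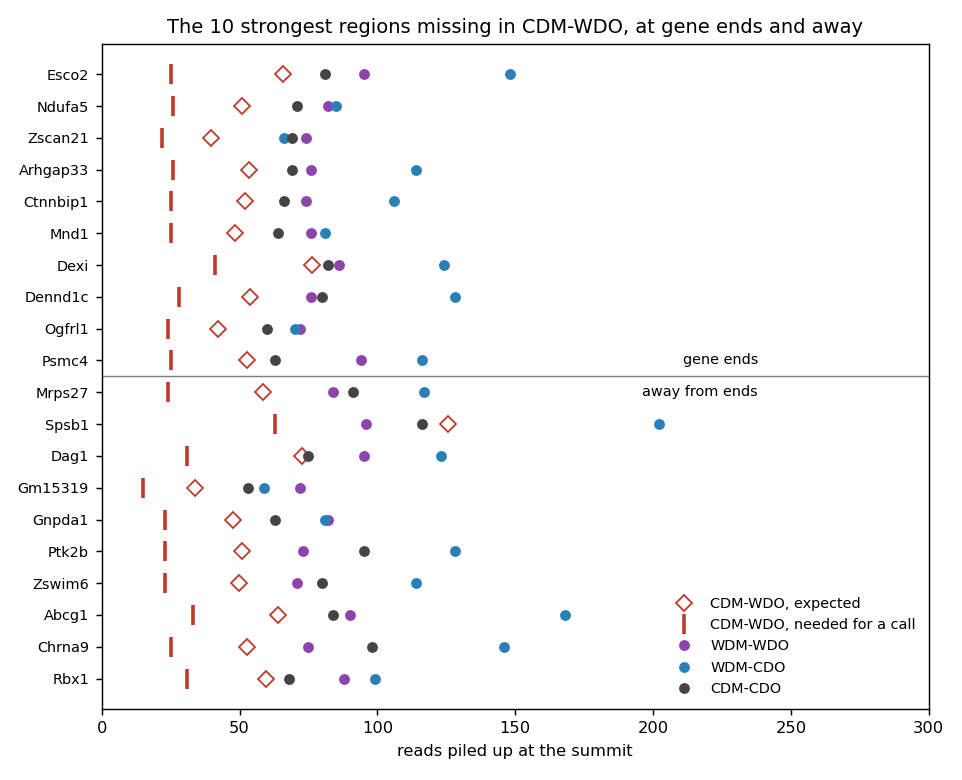
Reads piled up at the summit (x axis) of the 10 strongest regions at gene ends and the 10 strongest away from them (rows, by nearest or adjoining gene) in WDM-WDO, WDM-CDO and CDM-CDO (filled points), with the pileup expected in CDM-WDO (open diamond) and the pileup a call there needed (bar). Every diamond lies right of its bar, such as 39.5 against 22 in Zscan21 and 65.9 against 25 in Esco2.

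In all, 1324 protein-coding genes had one of the regions at an end (6.12% of 21631), and 1196 of them (90.3%) had no CDM-WDO peak at either end. The absence at the end with the region was nearly fixed by the choice, so this share is a description. By nearest gene within 100 kb, 2515 genes (11.6%) had at least 1 region, 343 had 2 or more and 17 had 4 or more. Foxp1, a forkhead transcription factor gene used in lymphocyte and heart development, had the most. Of the 13 regions of Foxp1 called in the other 3 lists, 8 were missing in CDM-WDO. Over all its 43 merged regions it had 11 in CDM-WDO, 27 in WDM-WDO, 25 in WDM-CDO and 20 in CDM-CDO. Ppp1r16b, a phosphatase subunit gene active in endothelium, followed with 6 of 9, and had 3 regions in CDM-WDO, against 10, 11 and 11.

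Akap13, a scaffold of protein kinase A signalling, had 5 of 12 missing, Aopep 5 of 5, and Ets1, an ETS transcription factor gene of lymphocytes and endothelium, 5 of 8. The genes with 4 each were named after their values were seen. They include Ccr7, the chemokine receptor that leads T cells and dendritic cells into lymph nodes (4 of 5), the interferon gamma receptor gene Ifngr1 (4 of 5) and Rhoh, a GTPase gene of blood cells (4 of 5). Tbc1d1 and Tmem154 had no CDM-WDO region at all, and 11 and 7 regions in WDM-WDO.

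In 29 gene lists with 525 genes, regions were assigned to the nearest gene within 100 kb, where 7.13% of all regions were among the 3063. Lymphocyte markers stood highest by the share missing. Of 10 regions near them in the other 3 lists, 6 were missing in CDM-WDO (60.0%, 31.3 to 83.2%), against 22.8% of all such regions and 38.5% of regions with the same expected pileup and place. With so few regions the interval takes in the matched share. None of the regions near these markers was missing in WDM-WDO alone or WDM-CDO alone, and 1 in CDM-CDO alone. Such regions were few everywhere. Of 41492 regions within 100 kb of a gene, 470 were missing in WDM-WDO alone, 149 in WDM-CDO alone and 942 in CDM-CDO alone. A further 13 of the 57 regions near lymphocyte markers were present in both CDO lists and absent from both WDO lists.

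The 6 regions were all near T cell genes. The region at the shared end of Cd3g and Cd3d, signalling chains of the T cell receptor, had 38 reads in WDM-WDO, 91 in WDM-CDO and 55 in CDM-CDO. A region 3552 bp from Cd8a, the coreceptor of killer T cells, had 33, 114 and 76. A region inside Lck, the kinase that starts receptor signalling, had 40, 113 and 60. Inside Cd4, the coreceptor of helper T cells, one had 36, 71 and 63. Bcl11b, a transcription factor gene that fixes T cell identity, had one with 36, 84 and 65 reads and one with 26, 46 and 40. WDM-WDO was the lowest of the 3 lists at each of the 6, and both CDO lists were higher. Cd3d also had a gene-end peak in every list, with 43 reads in CDM-WDO, 102 in WDM-WDO, 135 in WDM-CDO and 86 in CDM-CDO. So Cd3d was not without a gene-end call in CDM-WDO. In bulk samples such as these, fewer cells of a type and less open chromatin per cell cannot be told apart.

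Over its whole list WDM-WDO had a higher median pileup than either CDO list. With pileups above background scaled by strong regions of all 4 lists, WDM-WDO had a median 0.446 times the CDM-CDO value at these 6 regions and was higher at 0 of 6. The median over all 3063 regions was 0.827, and over regions of all 4 lists expected at 1 to 2 times the limit 0.998. That last set was not matched for strength or place, since 36.1% of the 3063 regions were expected under the limit. WDM-CDO had a median 0.939 times the CDM-CDO value at the 6 regions. The absence from CDM-WDO chose these regions and adds nothing to this comparison.

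A list of 36 genes of T cell receptor signalling and T cell regulators was added after these values were seen, so it describes the pattern and supports nothing independently. Near these genes 60 of 114 regions of the other 3 lists were missing in CDM-WDO (52.6%), against 39.0% for regions of the same expected pileup and place. Of all 327 regions near the list, 1 was missing in WDM-WDO alone, 1 in WDM-CDO alone and 5 in CDM-CDO alone. Of the same 327, 91 were in CDM-WDO, 186 in WDM-WDO, 221 in WDM-CDO and 184 in CDM-CDO. Of all 41492 regions within 100 kb of a gene, 16499 were in CDM-WDO, 24282 in WDM-WDO, 25915 in WDM-CDO and 20343 in CDM-CDO. CDM-WDO thus held the fewest regions over all genes too. Members of the list with at least 1 missing region numbered 27 of 36.

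At gene ends, the strongest of these was Grap2, an adaptor of T cell receptor signalling, with 64 reads in WDM-WDO, 99 in WDM-CDO and 74 in CDM-CDO. Lat, the membrane scaffold that the receptor kinases phosphorylate, had 60, 124 and 81. Runx3, a transcription factor gene of killer T cells, had 53, 70 and 55, and Cd27, a costimulatory receptor gene, 60, 70 and 59 at one region and 40, 99 and 65 at another. Others were chosen after their values were seen. Cd5, an inhibitory coreceptor of T cells, had 53, 55 and 46 reads. The costimulatory receptor gene Cd28 had 33, 71 and 48 reads and Ccr7 47, 91 and 54. Of these 8 regions WDM-WDO was lowest except at the first region of Cd27 and at Cd5, where CDM-CDO was lower.

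WDM-WDO had the fewest reads at 10 of the 15 regions at gene ends and at 29 of the 45 away from them, and the most at 2 and 8. A share by reads over all 3063 regions is not given here. By −log10 q, WDM-WDO was lowest at 53.4% of the 3063 regions and highest at 22.0%. Examples away from gene ends were chosen after their values were seen. A region of Tcf7, a transcription factor gene of naive T cells, had 69 reads in WDM-WDO, 172 in WDM-CDO and 117 in CDM-CDO. A region of Cd247, the zeta chain of the receptor, had 44, 134 and 95. A region of the adaptor gene Lcp2 had 33, 119 and 81. WDM-WDO was instead the highest at a region of Foxp1, with 51, 40 and 20 reads. Of the 60 regions, WDM-WDO was higher than CDM-CDO after scaling at 8 (13.3%), with a median ratio of 0.658. Over all 3063 regions it was higher at 33.0%, with a median of 0.827. Over those away from gene ends it was higher at 27.8%, with a median of 0.755. The scaled ratio of WDM-CDO to CDM-CDO had a median of 0.845 at the 60 regions and 0.883 over all 3063.

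As a check of the label, endothelial identity genes had a gene-end peak at 7 of 20 in CDM-WDO, 6 in WDM-WDO, 9 in WDM-CDO and 7 in CDM-CDO. Their summed summit pileups were 249, 210, 386 and 206 reads. These values did not by themselves bear out the label. Cdh5, Pecam1, Tek, Fli1, Sox17, Sox18, Emcn, Egfl7, Vwf, Robo4 and Mmrn2 had no gene-end peak in any list. Lymphocyte markers had one at 3, 7, 9 and 8 of 16, with summed pileups of 94, 337, 705 and 568 reads. Cd3e had no gene-end peak in either WDO list, against 99 reads in WDM-CDO and 68 in CDM-CDO. Cd79b, a B cell receptor gene, had none in either WDO list, against 120 and 167. Other markers of this list went the other way, with a gene-end peak in WDM-WDO alone at Il7r (74 reads) and at Cd79a (25 reads). Macrophage and monocyte markers had one at 4, 12, 5 and 5 of 16, with 190, 647, 249 and 206 reads. These sums count an end without a peak as 0 and are not scaled between lists. The lymphocyte values are not separate from the T cell gene regions above. The Cd3g end is among those regions, and its absence from CDM-WDO was fixed by the choice. The part of the lymphocyte signal in the T cell gene regions was not tested.

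Of 9 regions near macrophage and monocyte markers in the other 3 lists, 1 was missing in CDM-WDO (11.1%, 1.99 to 43.5%), against 22.8% of all such regions and 36.6% at the same expected pileup and place. With so few regions the interval takes in both. It lay inside Spi1, the master transcription factor gene of myeloid cells. It had 64 reads in WDM-WDO, against 29 in WDM-CDO and 27 in CDM-CDO. WDM-WDO was thus the highest there, while it was the lowest at most of the T cell gene regions above. Endothelial identity genes had 2 of 12 missing (16.7%, 4.70 to 44.8%), against 37.2% at the same expected pileup and place. One lay at an end of Icam2, an endothelial adhesion molecule gene (44, 62 and 46 reads), and the other in Flt1, a receptor gene for vascular endothelial growth factor (30, 87 and 45).

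Interferon response genes had 12 of 33 regions missing in CDM-WDO (36.4%, 22.2 to 53.4%), against 24.0% at the same expected pileup and place. The interval takes in that matched share. None of the regions near these genes was missing in another list alone. Such regions were few everywhere, and the proteasome and DNA replication and repair lists also had none. At a gene end, the antiviral gene Rsad2 had 51 reads in WDM-WDO, 51 in WDM-CDO and 34 in CDM-CDO. Oas2, another antiviral gene, had 56, 31 and 20 at an end. Ifngr1 gave 4 of the 12, with 17 to 54 reads. With the lists cut to equal length, 6 of 27 were missing (22.2%), against 18.5% of all such regions.

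DNA replication and repair genes had 6 of 20 missing (30.0%, 14.6 to 51.9%), against 14.0% at the same expected pileup and place. Of these, 4 lay at gene ends. Xrcc1, a scaffold of single-strand break repair, had 78, 75 and 56 reads, Brca2, a gene of homologous recombination, 35, 37 and 34, Mcm2, a helicase subunit gene, 65, 67 and 49, and the clamp loader gene Rfc2 37, 54 and 33. A region of Xrcc6, which encodes Ku70 of end joining, had 63, 181 and 99 reads and was expected at 1.79 times the limit. The interval of this share takes in the value at matched strength.

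Genes of TGF-beta signalling and mesenchymal transition had 11 of 37 missing (29.7%), close to the 30.0% at matched strength and place, and none at a gene end. Smad7, an inhibitor of the pathway, had a region 14310 bp away with 49, 91 and 66 reads, and Smad3, Smad4, Smad6, Tgfbr1, Tgfbr2, Tgfb2, Zeb1 and Zeb2 also had at least 1. Insulin and mTOR signalling genes had 10 of 36 missing (27.8%, against 25.7%), with gene-end regions of Irs2 (67, 81 and 69 reads), Rictor (30, 39 and 26) and Akt1 (42, 59 and 46). Cholesterol export genes had 6 of 26 missing (23.1%, against 26.2%), of which Abcg1 gave 3, and Abca1, Nr1h3 and Mylip 1 each. In these 3 lists the missing share was near that of other regions of like strength.

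Other lists had lower shares. Oxidative stress defence genes had 0 of 24 missing (0 to 13.8%), against 20.1% at matched strength and place. Genes of AP-1 and the early response had 3 of 43 missing (6.98%, against 17.3%), at Batf, Egr1 and Egr2. Shear stress and nitric oxide genes had 1 of 17 (5.88%, against 27.8%), at an end of Nos3, the endothelial nitric oxide synthase gene, with 61, 83 and 43 reads. NF-kB pathway genes had 7 of 36 (19.4%, against 23.7%), with a region 2195 bp from Traf2, a signalling adaptor gene, at 67, 198 and 129 reads. Low shares also stood in lists of other kinds, with 2 of 24 for splicing factors (8.33%, against 4.82%), 2 of 22 for fatty acid handling (9.09%, against 20.6%), 2 of 21 for autophagy and the lysosome (9.52%, against 16.2%) and 2 of 15 for leukocyte adhesion and chemokines (13.3%, against 39.6%). Proteasome genes had 5 of 26 (19.2%, 8.51 to 37.9%, against 14.7%), at ends of Psmc4, Psmb6, Psmb5 and Psmb4 and inside Psma6.

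**Figure D5:**
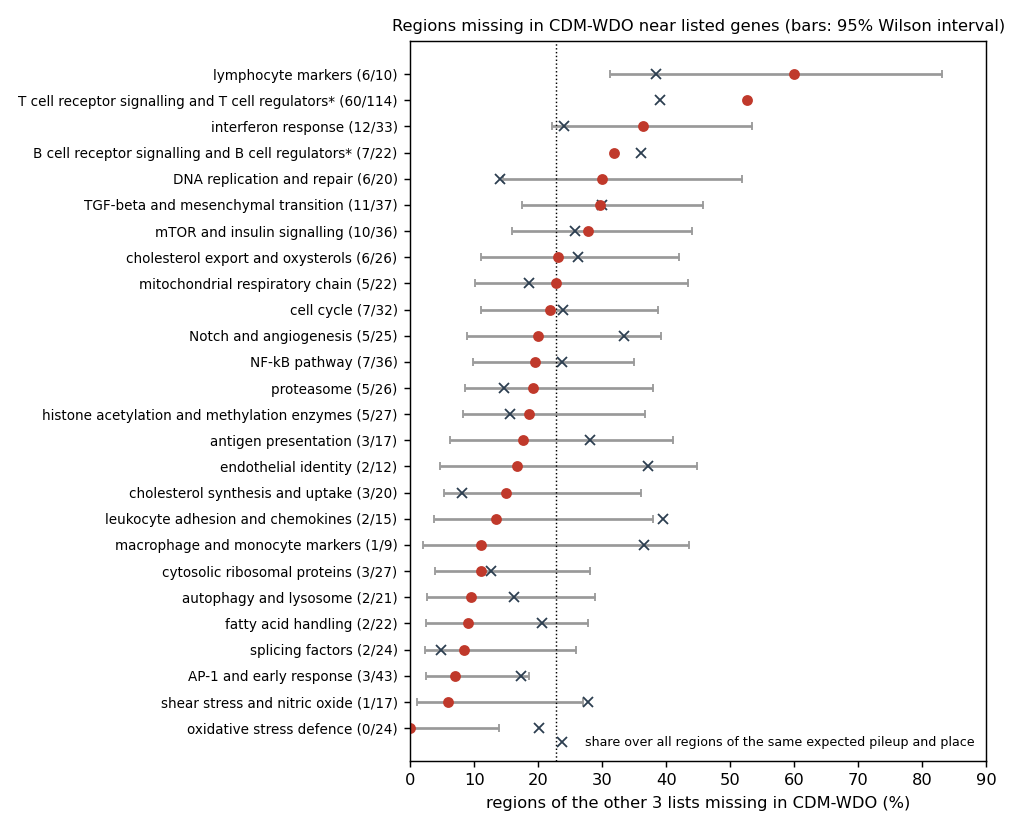
Share of the regions of the other 3 lists near each gene list that were missing in CDM-WDO (x axis, %, red points), with 95% Wilson intervals, counts in brackets, and the share over all regions of the same expected pileup and place (crosses). The dotted line is the 22.8% of all such regions, and lists with an asterisk were added after values were seen and have no interval. Lists with fewer than 9 such regions are left out. Lymphocyte markers lie highest at 60.0% and oxidative stress defence lowest at 0.

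By chromosome the share of regions of the other 3 lists missing in CDM-WDO ran from 19.2% on chromosome 16 to 26.8% on chromosome 15, with 20.6% on X (69 regions). The regions were scattered, with 294 of 3063 (9.60%) within 10 kb of another one.

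Of 1005 miRNA hairpins of RefSeq, 16 (1.59%) had one of the 3063 regions within 1 kb. Among the 100 hairpins with a region of the other 3 lists that near, this is 16%, against 22.8% of all such regions. The region near Mir7058 was the one at the end of Lat, with 60 reads in WDM-WDO, 124 in WDM-CDO and 81 in CDM-CDO. The one near Mir8119 was the one at Lck, with 40, 113 and 60. The region near Mir3092, inside Fndc3b, had 41, 51 and 26 reads, and that near Mir92b and Thbs3 had 42, 45 and 37.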

How the data were processed

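ATAC-seq was done on 8 samples in 4 groups of 2, and each group had 1 deposited peak list. The 4 H3K27ac samples were not used here. The build GRCm38 (mm10) and the tools MACS2 2.2.9.1, Bowtie2 2.4.5, SAMtools 1.13, Trim Galore 0.6.10, FastQC 0.12.1 and deepTools 3.5.4 stand in the submitters' processing notes, with no settings. The sources used here do not say whether the 2 samples were pooled or whether reads were shifted for the transposase. The deposited values per peak are a score, a fold enrichment (ratio to the local background), −log10 p and −log10 q, all computed by the authors. The lowest −log10 q was 1.30 to 1.31, near a q threshold of 0.05.

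Regions were merged, and whole-number pileups were recovered from the authors' fold and −log10 p for 100% of peaks (relative tolerance 0.0001), with Python 3.11.15, pandas 2.3.3, numpy 2.4.6 and scipy 1.17.1. The recovery and merging were tested on simulated data. Genome background was 5.49 reads in CDM-WDO, 6.08 in WDM-WDO, 5.59 in WDM-CDO and 4.84 in CDM-CDO. Read totals per sample were not used. Genes were 21631 protein-coding genes and 32585 promoter windows of RefSeq (GRCm38.p6). All 525 listed genes matched. The table gives no gene strand, and artefact-prone regions were not filtered.

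The regions, the gene lists, the motifs and the tests were chosen with earlier results of these data known, and 2 lists were added after values were seen. Named genes are the 10 strongest regions at gene ends and the 10 away from them, up to 4 genes per list, the 5 genes with most regions, the 10 regions with the highest ratio of expected to needed pileup, and regions at the borders of the rule. Names outside this are given as chosen after their values were seen, and some genes the rule would name are not reported here. No replicate check was possible, and shares carry 95% Wilson intervals for counting error. Alternatives were a stricter q, equal list lengths, a minimum strength, 50% overlap, no CDM-WDO peak within 1 kb, other gene windows and other pileup scales.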

Additional observations from a re-analysis of the deposited data

How the results depend on the processing

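No paired analysis was possible because each group had 1 peak list with no replicate number. The 3063 regions numbered 1641 when presence needed a −log10 q of at least 5 in every list that held them, and then 44.97% lay at gene ends, 848 genes had one at an end, 64 lay near listed genes (109 in the main count) and 32.65% of their promoter windows held the ETS letters. Their share at gene ends was 42.56% with lists of equal length (18962 peaks), 35.62% with a gene window of 500 bp and 42.38% with 2 kb. The 16 regions expected at 2 or more times the limit became 4 with a −log10 q of at least 2 in all lists, and 123 with the median in place of the lowest expected pileup, a setting chosen after seeing the data. The cause of these moves was not tested. The number of regions was 2237 at equal length and 2994 to 3050 under the other settings run. Near lymphocyte markers 5 of 8 regions were missing at equal length (62.5%), and near the added T cell list 39 of 87 (44.8%), against 18.5% of all. Counts of single gene lists moved by over 1.5 times for 13 of 29 lists at a −log10 q of 5, 6 at equal length and 5 with assignment within 10 kb. The calling limit of CDM-WDO bounds what an absence shows, since 36.1% of the regions were expected under it and 63.3% at 1 to 2 times it.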

Other observations

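Near an added list of 20 genes of B cell receptor signalling and regulators, chosen after values were seen, 7 of 22 regions of the other 3 lists were missing in CDM-WDO (31.8%), against 36.0% at the same expected pileup and place. Prdm1, a regulator of plasma cells that T cells and myeloid cells also use, had 3 of the 7, with 27 to 65 reads. No test of the difference between the B cell and T cell lists was made.

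Mitochondrial respiratory chain genes had 5 of 22 missing (22.7%, against 18.5%), and Cox6c, a subunit of complex IV, had a gene-end region with 48 reads in WDM-WDO, 22 in WDM-CDO and 27 in CDM-CDO.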
